A study of Mus musculus with 12 samples.

Results

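The regions described here are 391 H2A.Z peaks that were listed in Ino80-deleted spermatogenic cells, had no overlapping H2A.Z peak in wild-type cells, and lay on sequence that INO80 occupied in wild-type cells. They were selected on the presence or absence of a peak in 3 lists: of 26199 H2A.Z peaks in the Ino80cKO list, 1735 (6.62%) shared no base with a peak of the Ino80WT list, and 391 of these 1735 (22.5%) shared at least 1 bp with an INO80 peak. INO80 overlapped 15180 of all 26199 knockout peaks (57.9%) and 1527 of 10173 wild-type-only peaks (15.0%). The mice were of mixed background and 18 days old (P18). INO80 ChIP was done on wild-type cells. H2A.Z ChIP was done on Ino80WT cells and on Ino80cKO cells, in which Ino80 was deleted with Stra8-Cre. All cells came from digested seminiferous tubules passed through a filter, so somatic cells of the tubule, which a germ cell recombinase leaves intact, can remain among them. Each group had 2 libraries but 1 list, so replicates cannot be compared. Depth is unknown, since the lists carry no reads. INO80 was mapped in wild-type cells alone, and "with INO80" below means a place that INO80 occupied there. The lists hold neither RNA levels nor the deletion itself, so the labelled cell type and genotype could not be checked.

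INO80 is the ATPase of a large chromatin remodelling complex that slides nucleosomes and can take part in exchanging H2A.Z for H2A. H2A.Z is a histone H2A variant placed by the SRCAP and TIP60 complexes, mainly at nucleosomes beside transcription start sites and at enhancers. In male germ cells many developmental regulators sit in chromatin that carries active and polycomb marks together, and H2A.Z is known to accompany such poised promoters.

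Members were narrow. Their widths ran from 147 bp, the smallest width in any list, to 1214 bp, with a median of 202 bp and quartiles of 165 and 266 bp, and 36 of 391 were exactly 147 bp wide. Knockout peaks that had both INO80 and a wild-type partner had a median of 638 bp, wild-type-only peaks with INO80 257 bp, and knockout-only peaks without INO80 180 bp. Width belongs to the lists that chose the members, so these medians are a description. Only 5 members reached 500 bp, and 12 stood among the widest 50% of the knockout list.

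The sequences below show where a member lay directly before a gene. Of 391 members, 46 overlapped a window from 250 bases before to 50 bases after an annotated start (RefSeq, GRCm38.p6, the assembly that mm10 names). Of the promoters with no annotated gene in the 250 bases before the start, these 5 had the most bases under a member. Each line gives those 250 bases 5′ to 3′ on the gene's strand, with the bases under the knockout-only H2A.Z peak in capitals.

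Olig2: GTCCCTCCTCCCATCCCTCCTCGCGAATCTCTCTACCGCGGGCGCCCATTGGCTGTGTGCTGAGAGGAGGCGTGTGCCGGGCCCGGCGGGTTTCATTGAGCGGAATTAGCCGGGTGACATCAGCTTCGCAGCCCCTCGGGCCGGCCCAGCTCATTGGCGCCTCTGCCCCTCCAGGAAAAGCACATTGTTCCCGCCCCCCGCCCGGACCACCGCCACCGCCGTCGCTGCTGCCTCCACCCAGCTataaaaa
Setd1a: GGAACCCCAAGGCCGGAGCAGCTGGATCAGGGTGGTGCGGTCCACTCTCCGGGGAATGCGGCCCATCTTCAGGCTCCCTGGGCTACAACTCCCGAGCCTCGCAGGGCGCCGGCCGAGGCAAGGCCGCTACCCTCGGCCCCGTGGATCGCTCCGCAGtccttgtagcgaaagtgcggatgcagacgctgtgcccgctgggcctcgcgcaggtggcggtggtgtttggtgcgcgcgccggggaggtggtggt
Zic5: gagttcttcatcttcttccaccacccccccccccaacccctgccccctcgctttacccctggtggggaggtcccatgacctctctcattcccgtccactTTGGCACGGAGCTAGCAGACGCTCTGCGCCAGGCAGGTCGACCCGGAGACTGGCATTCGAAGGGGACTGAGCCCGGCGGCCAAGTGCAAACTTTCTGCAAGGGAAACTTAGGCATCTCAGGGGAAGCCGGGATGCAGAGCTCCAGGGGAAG
Tgfbi: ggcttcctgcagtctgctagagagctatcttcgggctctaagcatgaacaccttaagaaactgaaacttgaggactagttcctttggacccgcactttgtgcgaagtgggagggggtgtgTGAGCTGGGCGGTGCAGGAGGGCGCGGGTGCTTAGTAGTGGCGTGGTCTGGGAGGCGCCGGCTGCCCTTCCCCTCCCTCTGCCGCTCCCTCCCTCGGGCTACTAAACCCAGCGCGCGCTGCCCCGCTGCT
Gpr4: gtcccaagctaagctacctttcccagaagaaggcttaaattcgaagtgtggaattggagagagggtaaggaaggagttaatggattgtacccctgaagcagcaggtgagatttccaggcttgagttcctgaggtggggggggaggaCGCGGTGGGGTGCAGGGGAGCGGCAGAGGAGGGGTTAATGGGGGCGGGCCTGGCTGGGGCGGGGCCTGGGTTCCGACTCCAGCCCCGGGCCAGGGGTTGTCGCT

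The Olig2 stretch is chr16:91225300-91225549 on the plus strand, and the member (chr16:91225256-91225542, 287 bp) covered 243 of its 250 bases. Olig2 encodes a transcription factor of oligodendrocyte and motor neuron precursors. Wild-type H2A.Z was listed 919 bp away, within the same INO80 peak of 7698 bp. The Setd1a stretch (chr7:127777139-127777388, plus strand) had 156 bases under a member of 161 bp, with wild-type H2A.Z 90 bp away. Setd1a encodes a histone H3 lysine methyltransferase. At Zic5 (chr14:122465659-122465908, minus strand), which encodes a zinc finger transcription factor, 151 bases lay under a member of 167 bp, 523 bp from wild-type H2A.Z.

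Tgfbi and Gpr4 differed from these 3 in having no wild-type H2A.Z nearby. The Tgfbi stretch (chr13:56609336-56609585, plus strand) had 130 bases under a member of 283 bp whose nearest wild-type H2A.Z peak was 72408 bp away. Tgfbi encodes an extracellular matrix protein. The Gpr4 stretch (chr7:19212288-19212537, plus strand) had 104 bases under a member of 315 bp, 10092 bp from wild-type H2A.Z. Gpr4 encodes a proton-sensing receptor. Their INO80 peaks spanned 332 and 192 bp.

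These promoters were rich in CpG. Among the 48 promoter windows of 300 bases that members overlapped, which belong to 46 genes, the median number of CpG was 20 (range 7 to 42), against 13 over 21255 promoters of protein-coding genes, 10 where a knockout-only peak without INO80 lay, 23 where a wild-type-only peak with INO80 lay and 25 where a shared knockout peak with INO80 lay. At least 10 CpG were present in 46 of the 48 windows (95.8%), in 56.8% of all promoters and in 95.5% of those with a shared knockout peak and INO80. The share with 10 or more CpG was 93.3% for wild-type-only peaks with INO80 and 53.5% for knockout-only peaks without it.

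Letters of known motifs were counted on both strands of the same whole windows, whether or not they lay under the member. The GC box GGGCGG was present in 31 of 48 windows (64.6%, against 46.2% of all promoters and 74.4% of promoters with a shared knockout peak and INO80). GCCATNTT, a site of YY1, a zinc finger factor that associates with INO80, was present in 8 of 48 (16.7%, 95% Wilson interval 8.70 to 29.6%), against 6.37% of all promoters, 7.42% with a shared peak and 11.0% (7.85 to 15.2%) with a wild-type-only peak and INO80. The 8 windows belonged to Arid1a, Ftsj3, Psmc5, Erh, Sbno1, Qrich1, Plod3 and Lpxn, and those of Ftsj3 and Psmc5 share sequence. The member covered from 10 bases of the window (Arid1a and Psmc5) to 130 (Qrich1), so a site need not lie under it. No window held the RFX letters GTTGCCAT (1.18% of all promoters), and 3 of 48 (6.25%, 4.05% of all) held the MYB letters AACNGTT. Motif and CpG shares were not tested.

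The widest members stood at genes of several kinds. The widest (chr14:103843201-103844414, 1214 bp) lay at Ednrb, which encodes the endothelin B receptor, wholly within an INO80 peak of 2677 bp and 25889 bp from wild-type H2A.Z. The next (chr11:102880716-102881516, 801 bp) lay over the adjoining ends of Eftud2, a spliceosome GTPase gene, and Ccdc103, a dynein arm assembly gene, and an INO80 peak of 156 bp lay inside it. A member of 614 bp (chr5:122988068-122988681) lay at Kdm2b, whose product recruits a polycomb complex to CpG islands, 203 bp from wild-type H2A.Z.

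Of the others among the 10 widest, those at Lhx6, Tbx5 and Gpr179 lay inside the gene and more than 1 kb from its annotated ends. The member at Lhx6 also overlapped an annotated start window inside the gene, by 58 bp. Those at Lhx6 (508 bp), a LIM homeobox gene, and at Tbx5 (476 bp), a T-box gene of heart and forelimb, were 572 and 15950 bp from wild-type H2A.Z. The member at Gpr179 (476 bp), a retinal receptor gene, was 4305 bp from it. Thbd, which encodes thrombomodulin, held a member of 472 bp, and Ache, the acetylcholinesterase gene, had one of 439 bp before its start. A member of 479 bp lay between genes, 6261 bp from Gsta3. At gene ends, the next widest lay at Zbtb2 (424 bp), the protease gene Adamts15 (405 bp), Arid1a (390 bp), which encodes a subunit of the BAF remodeller, the chaperonin gene Cct5 (388 bp) and the vasopressin gene Avp (383 bp). The centre of the member at Avp lay 1678 bp into the gene from its start.

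**Figure D1:**
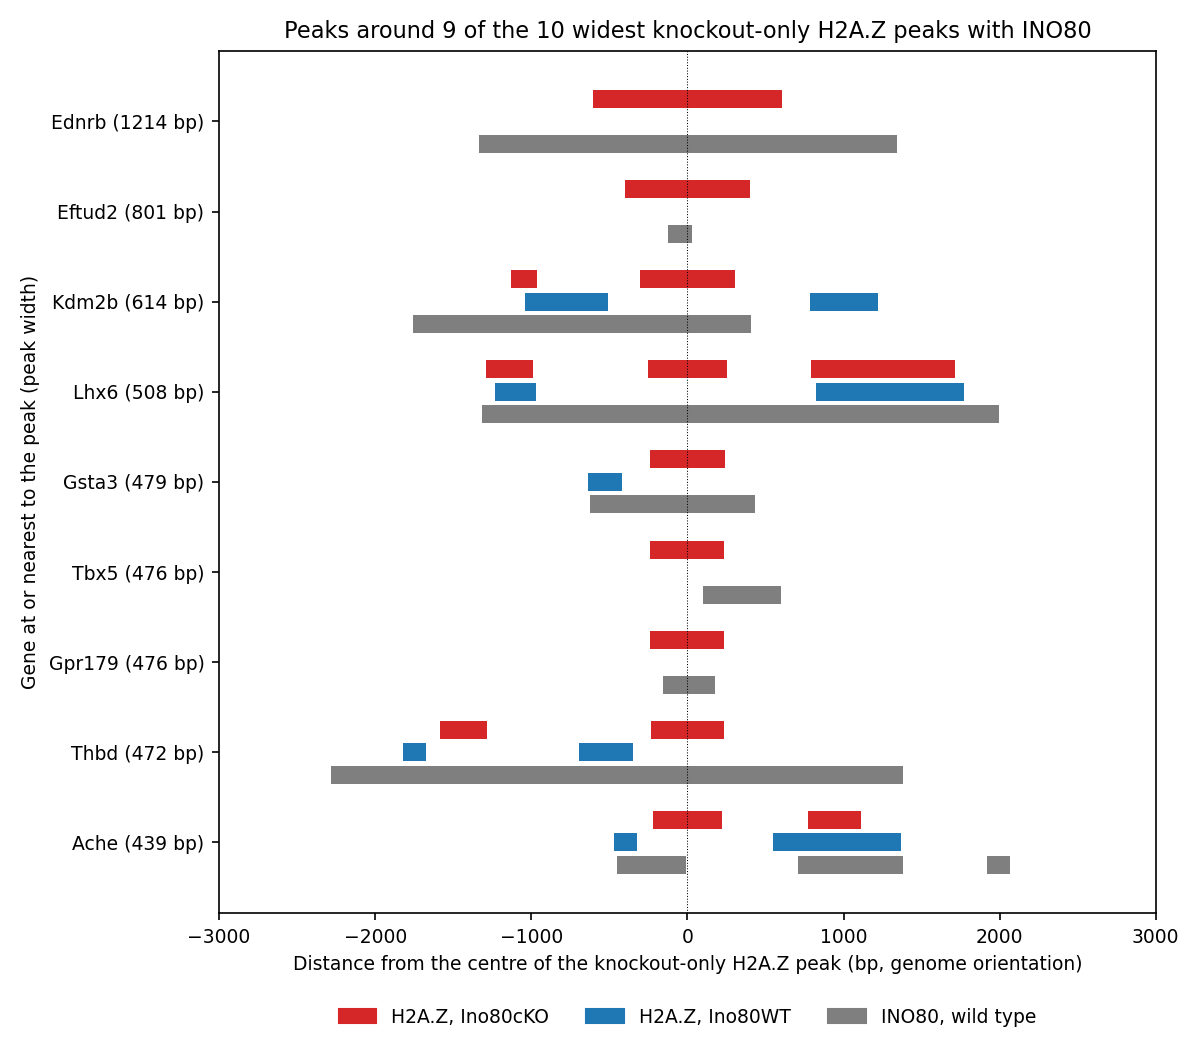
Peaks of 3 lists around 9 of the 10 widest members, as distance in bp from the centre of the member in genome orientation (red, H2A.Z in Ino80cKO; blue, H2A.Z in Ino80WT; grey, INO80 in wild type). No wild-type H2A.Z peak stands within 3000 bp at Ednrb, Eftud2, Tbx5 or Gpr179, whereas at Kdm2b, Lhx6, Thbd and Ache the member stands between or beside wild-type peaks.

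Where the members sat relative to genes was tested. The rule used no gene position, but it bears on position through INO80 and wild-type H2A.Z. A gene end here means any position up to 1 kb from the first or last annotated base of a protein-coding gene. Of the members 163 of 391 (41.7%, 36.9 to 46.6%) were at a gene end, 142 (36.3%) elsewhere inside a gene and 86 (22.0%) between genes. A gene end can be the start or the far end of a gene. Among 160 gene-end members on chromosomes with listed starts, 108 had their centre within 1 kb of a listed start of any gene. Knockout-only peaks without INO80 were at a gene end in 226 of 1344 cases (16.8%, 14.9 to 18.9%), which gave members an odds ratio of 3.53 with an interval of 2.74 to 4.56 (adjusted p = 1.47e-22 by a two-sided Fisher's exact test, Benjamini-Hochberg adjustment over 6 comparisons). Of all INO80 peaks 64.3% were at a gene end. Members had to overlap INO80 and the peaks they were compared with had to avoid it, so the rule itself favours a high ratio here. That p-value therefore cannot be read as a preference of the members beyond that of INO80. Shared knockout peaks with INO80 were at a gene end in 10604 of 14789 cases (71.7%), more often than the members. The odds ratio of members was 0.282 (0.229 to 0.348, exact test, adjusted p = 2.32e-33). Among peaks of like width the second ratio was 0.431 (Mantel-Haenszel, 0.348 to 0.533). With windows of 3 kb the ratios were 5.78 and 0.468. Of 11936 genes with INO80 at an end, 96.2% had wild-type H2A.Z at one. Members had to avoid wild-type H2A.Z and shared peaks had to overlap it, so the rule itself favours a low second ratio. Its p-value therefore cannot be read as a preference of the members.

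Members and wild-type-only peaks with INO80 did not differ detectably in this share. The latter were at a gene end in 680 of 1527 cases (44.5%, 42.1 to 47.0%), and the odds ratio of members was 0.891 with an interval of 0.706 to 1.12 (exact test, adjusted p = 0.647). The interval leaves room for a difference in either direction. Within 1 kb of an annotated start the shares were 38.2% of members and 44.5% of wild-type-only peaks with INO80. That odds ratio was 0.772, and its interval of 0.608 to 0.978, not adjusted for the number of comparisons, excludes 1. The adjusted p was 0.0557 (exact test). These tests count peaks, which are neither animals nor independent of their neighbours, so the p-values compare lists. Intervals are 95% intervals of counting error alone.

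**Figure D2:**
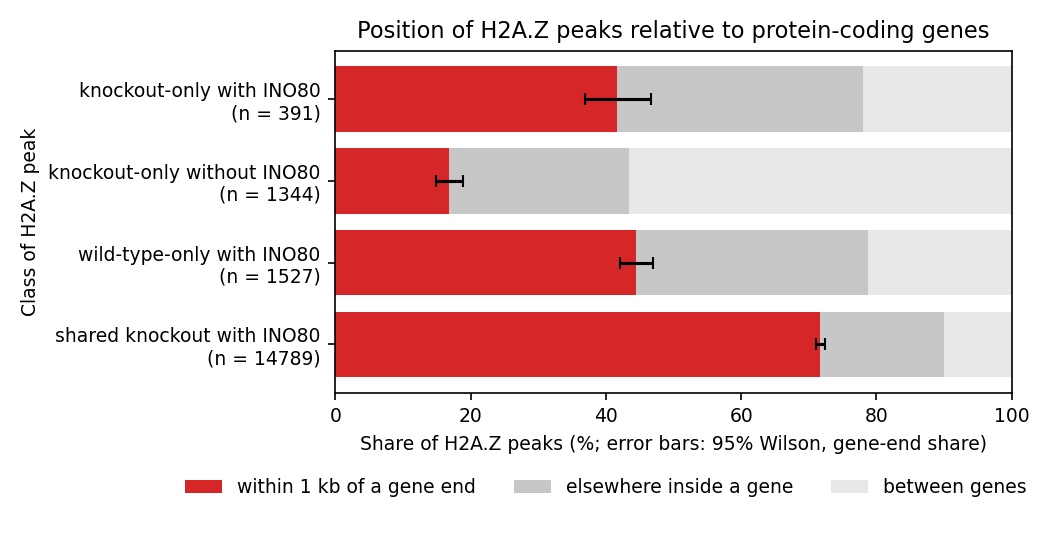
Shares (%) of H2A.Z peaks within 1 kb of an end of a protein-coding gene (red), elsewhere inside one (mid grey) and between genes (light grey) for 4 classes of peaks, with 95% Wilson intervals of the gene-end share. The gene-end share of members (41.7%) lies near that of wild-type-only peaks with INO80 (44.5%), above knockout-only peaks without INO80 (16.8%) and below shared knockout peaks with INO80 (71.7%). The rule, which requires INO80 and no wild-type H2A.Z, itself favours the differences from the knockout-only and the shared class.

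On the X, which is silenced in pachytene of male meiosis, there were 8 members (2.05%, 1.04 to 3.98%), against 2.83% of knockout-only peaks without INO80, 2.49% of wild-type-only and 1.62% of shared knockout peaks with INO80. None of the 3 comparisons passed (Fisher's exact test, adjusted p = 0.647, 0.713 and 0.647). The interval of the odds ratio against shared knockout peaks ran from 0.537 to 2.56, so differences of over 2-fold cannot be told from none at this number. The 8 included a member inside Bcor, a gene of a variant polycomb complex (179 bp). No member lay on the Y, which held 2 knockout peaks in all. Chromosome 19 held 23 members, or 27.9 per 1000 of its knockout peaks, and the other autosomes held 9.77 to 19.6 per 1000. Several of the 23 lay close together in or nearest to Pax2, and these rates were not tested.

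Positions around start sites are given as shares of the peaks near one. The centre of 126 members lay within 1 kb of the nearest start of a protein-coding gene, among 382 members on chromosomes that the promoter table covers. Of these, 80 (63.5%, 54.8 to 71.4%) lay on the transcribed side, against 74.3% of 9076 shared knockout peaks with INO80, 69.9% of 572 wild-type-only peaks with INO80 and 43.2% (36.0 to 50.7%) of 169 knockout-only peaks without INO80. Within 250 bp of the start on either side were 57 of the 126 (45.2%), against 62.9% of shared knockout peaks and 46.3% of wild-type-only peaks with INO80. More than 250 bp before the start were 26.2% of members, 8.58% of shared knockout peaks and 20.6% of wild-type-only peaks with INO80, and more than 250 bp into the gene 28.6%, 28.5% and 33.0%. These shares were not tested. Members had to avoid wild-type H2A.Z and shared peaks had to overlap it, so the rule itself bears on their distance from a start. Centres of narrow peaks (members, median 202 bp) are also set beside those of wider ones (shared knockout peaks, 638 bp). By distance, 44 members lay 0 to 250 bp into the gene, 19 at 250 to 500 bp and 17 at 500 to 1000 bp, and before the start 13 lay within 250 bp, 20 at 250 to 500 bp and 13 at 500 to 1000 bp. The table gives starts for 17492 of 21887 protein-coding genes, so some members near a start are missing here.

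**Figure D3:**
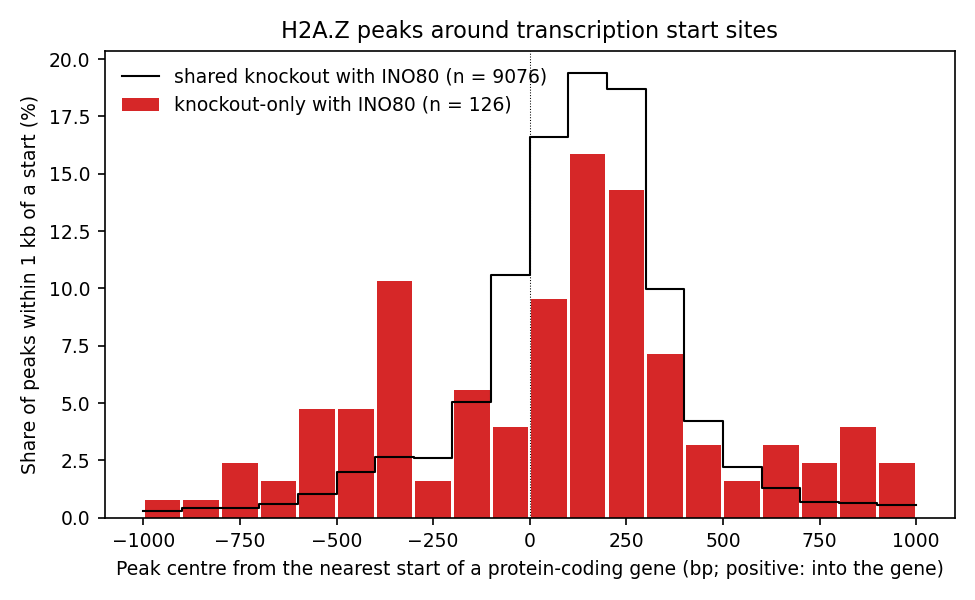
Distance of peak centres from the nearest start of a protein-coding gene (bp, positive into the gene) as a share (%) of peaks within 1 kb, for 126 members (red bars) and 9076 shared knockout peaks with INO80 (black line). Both stand highest just inside the gene, and their shares beyond 250 bp into the gene are alike (28.6% and 28.5%), whereas beyond 250 bp before the start the members stand higher (26.2% against 8.58%). Members had to avoid wild-type H2A.Z, which shared peaks had to overlap, so the rule itself bears on these distances.

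The members were split into 2 kinds by whether their INO80 peak also carried wild-type H2A.Z elsewhere. For 185 it did, and for 206 it did not. The split itself favours wide INO80 peaks and short gaps to wild-type H2A.Z in the first kind. It also favours other knockout peaks there, since a shared knockout peak must overlap wild-type H2A.Z. These values are therefore a description. The first kind lay in wide INO80 peaks (median 2051 bp), a median of 291 bp from the nearest wild-type peak, and 138 of the 185 shared the INO80 peak with another knockout peak. The second kind lay in INO80 peaks of a median of 628 bp, a median of 7081 bp from wild-type H2A.Z, and in 202 of 206 cases was the only knockout peak there, since 4 had another. At a gene end were 91 of the 185 (49.2%, 42.1 to 56.3%) and 72 of the 206 (35.0%, 28.8 to 41.7%). Median widths were 194 and 208 bp.

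Members occupied 384 of 18139 INO80 peaks (2.12%). Of these 384, 180 (46.9%, 41.9 to 51.9%) also overlapped wild-type H2A.Z, against 15051 of all INO80 peaks (83.0%). A peak that holds wild-type H2A.Z has less room for a peak that must avoid it, so this share is a description. Counted per length of INO80 sequence free of wild-type H2A.Z, there were 120.3 members per Mb in INO80 peaks without wild-type H2A.Z and 34.3 per Mb in those with it. Among INO80 peaks of 3 kb or more, which held 68 members, the values were closer, at 43.4 and 47.7 per Mb. The share of INO80 peaks with a member was 1.35% under 500 bp, 1.25% at 500 to 1000 bp and 2.65% at 1 to 2 kb. It was 3.69% at 2 to 3 kb and 11.6% at 3 kb or more. Members per Mb of free INO80 sequence were 139.2, 61.9, 48.6, 32.3 and 47.0 in the same order. In INO80 peaks without wild-type H2A.Z they fell steadily with width (173.1, 127.5, 104.3, 96.5 and 43.4). In those with it there was no such fall (30.8, 25.3, 36.1, 25.6 and 47.7). Since an overlap of 1 bp counts, a member can reach into a narrow INO80 peak from outside. How far this bears on the values under 500 bp was not tested.

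Most members close to wild-type H2A.Z had a neighbour that was also listed in the knockout. A wild-type peak lay within 250 bp of 85 members (21.7%), within 1 kb of 205 (52.4%) and within 10 kb of 309 (79.0%). Of knockout-only peaks without INO80, 33.2% had one within 1 kb and 54.2% within 10 kb. For 136 of the 205 members the wild-type neighbour overlapped a knockout peak, and for 69 (33.7%, 27.5 to 40.4%) it had no knockout peak. Of the neighbours that overlapped INO80, 65 of 195 (33.3%) had none, against 1527 of 15968 wild-type peaks with INO80 (9.56%) and 30.1% of all wild-type peaks. For knockout-only peaks without INO80 the same count was 266 of 446 (59.6%, 55.0 to 64.1%). Neighbours of members that were listed in both had a median width of 758 bp and absent ones 199 bp. The same medians were 624 and 231 bp over all wild-type peaks and 806 and 257 bp over those with INO80. For neighbours of knockout-only peaks without INO80 they were 553 and 200 bp. Neighbours were counted once for each knockout-only peak, so a wild-type peak nearest to more than 1 of these counts repeatedly. The counts over all wild-type peaks take each peak once. These values come from the lists that define the members and were not tested.

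**Figure D4:**
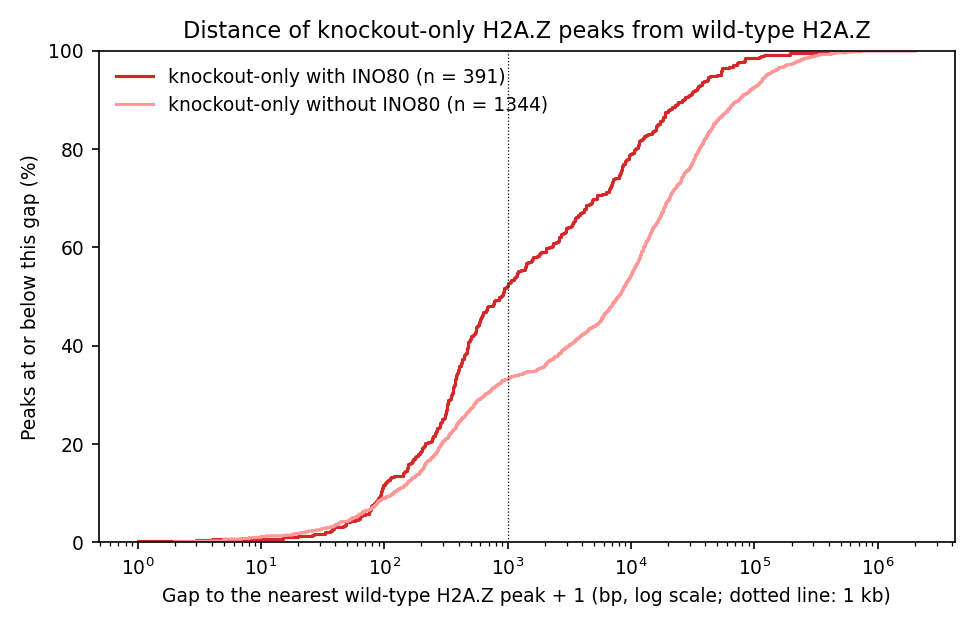
Cumulative share (%) of knockout-only H2A.Z peaks by gap to the nearest wild-type H2A.Z peak (bp plus 1, log scale) for 391 members (dark red) and 1344 knockout-only peaks without INO80 (light red). At the dotted line of 1 kb the curves stand at 52.4% and 33.2%.

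In 58 of the 69 cases the absent wild-type peak and the member lay in the same INO80 peak. Thbd showed this at 2 places. Its INO80 peak (chr2:148405704-148409368, 3665 bp) held wild-type H2A.Z at chr2:148406167-148406315 and chr2:148407297-148407642, and knockout H2A.Z at chr2:148406408-148406704 and chr2:148407754-148408225. The gaps were 92 and 111 bp, and neither wild-type peak had a knockout peak. At Arid1a a wild-type peak of 163 bp lay 81 bp from the member of 390 bp, and at Ache one of 148 bp lay 102 bp from the member of 439 bp. Separate nucleosomes and 1 signal bounded differently in the 2 lists cannot be told apart from peak positions.

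Several members shared an INO80 peak. Vcan, which encodes the matrix proteoglycan versican, held 3 members (227, 198 and 316 bp) in an INO80 peak of 2398 bp with 2 wild-type peaks. Pairs lay in the INO80 peaks at Thbd, at Nr2e1 (185 and 152 bp), a nuclear receptor gene of neural stem cells, at Pou3f1 (147 and 159 bp), a POU factor gene of spermatogonial stem cells, and at Shank3 (147 and 181 bp), a synaptic scaffold gene. Pax2, a paired box factor gene of kidney development, held a pair (307 and 224 bp) in an INO80 peak of 2374 bp without wild-type H2A.Z, and a further member of 280 bp in a neighbouring one. The other 378 INO80 peaks held 1 member each.

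The 10 widest INO80 peaks with a member included those at the transcription factor genes Ebf2 (INO80 peak 8895 bp, member 147 bp), Lbx1 (7861 and 212 bp), Olig2 (7698 and 287 bp), Lhx5 (7330 and 187 bp), Six3 (7030 and 293 bp), Uncx (6982 and 225 bp), Helt (6149 and 194 bp) and Hoxd11 with Hoxd10 (5614 and 184 bp). The remaining ones of the 10 lay at the growth factor gene Pdgfa (5905 and 275 bp) and inside Jak3 (5468 and 212 bp). Wild-type H2A.Z was present in the same INO80 peak at all of these but Jak3.

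Members were counted over 13 gene lists, in the gene or within 1 kb of it. Among all 13263 protein-coding genes with INO80 there, 328 (2.47%) had a member. Developmental transcription factors had one at 19 of 131 genes (14.5%, 9.49 to 21.5%), with the widest at Tbx5 (476 bp), Lmx1b (354 bp), Tbx1 (324 bp), Pax2 (307 bp), Six3 (293 bp) and Olig2 (287 bp). Hoxd10 and Hoxd11 are both counted from the same member, so the genes of a list are not independent. Genes of Wnt, BMP, Hedgehog, Notch and FGF signalling had one at 9 of 76 (11.8%, 6.36 to 21.0%), among them the ligand genes Wnt1 (255 bp) and Wnt5a (231 bp), the secreted Wnt inhibitor gene Sfrp5 (239 bp), the Hedgehog effector gene Gli1 (224 bp) and the receptor genes Fzd8 (249 bp) and Fzd2 (201 bp).

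These 2 lists also had more INO80 sequence to hold a member. INO80 sequence free of wild-type H2A.Z averaged 2.85 kb a gene in the developmental list and 1.66 kb in the signalling list, against 0.505 kb over all genes with INO80. Per 100 kb of it there were 5.09 and 7.12 genes with a member, against 4.89 over all. A gene counts once in these rates, although Pax2, Tbx1, Lmx1b and Wnt5a each had several members. The part of this length in the higher share was not tested.

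Among spermatogonial genes 4 of 26 with INO80 had a member (15.4%, 6.15 to 33.5%). Zbtb16, which encodes a factor of stem cell maintenance, had one of 172 bp 63 bp from wild-type H2A.Z, and Gfra1, the GDNF receptor gene, one of 229 bp 590 bp from it. The member at T, the brachyury gene, was 147 bp wide and 34083 bp from wild-type H2A.Z. Pou3f1, named above, is the fourth. This list had 1.70 kb of free INO80 sequence a gene and 9.07 genes with a member per 100 kb, a value that rests on 4 genes.

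No direction can be read for the lists of meiosis and spermiogenesis. None of 35 genes of recombination and synapsis with INO80 (0 to 9.89%) and none of 20 piRNA genes (0 to 16.1%) had one, and their free INO80 sequence averaged only 0.146 and 0.170 kb a gene. Both intervals hold the 2.47% of all genes. The damage response gene Mdc1 had a member of 174 bp (1 of 28 genes of its list), and Rfx2, which encodes a factor of spermatid differentiation, one of 152 bp (1 of 16). Per 100 kb of free INO80 sequence these were 26.1 and 23.6 genes, the highest of the 13 lists, but each rests on 1 gene. Markers of somatic testis cells had a member at 1 of 23 genes (4.35%), at Tcf21 (147 bp), with 1.64 kb of free INO80 sequence a gene and 2.65 genes with a member per 100 kb. The centre of the member at Tcf21 lay 3606 bp downstream of the Tcf21 start and outside the gene.

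Chromatin genes had single members. The INO80 complex list had 1 of 12, at the subunit gene Ino80b (chr6:83121789-83122089, 301 bp), 421 bp from wild-type H2A.Z. The listed start nearest to that member was of the neighbouring gene Wbp1, so it need not lie at the Ino80b start. Genes of H2A.Z and its loading had 1 of 18, at the SRCAP subunit gene Znhit1 (149 bp), polycomb genes 2 of 38 (Kdm2b and Bcor), H3K4 and H3K27 methylation genes 1 of 20 (Setd1a) and ribosomal protein genes 1 of 40 (Rpl9, 303 bp). With 1 or 2 genes each, these shares lie within wide intervals that hold the 2.47% of all genes.

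**Figure D5:**
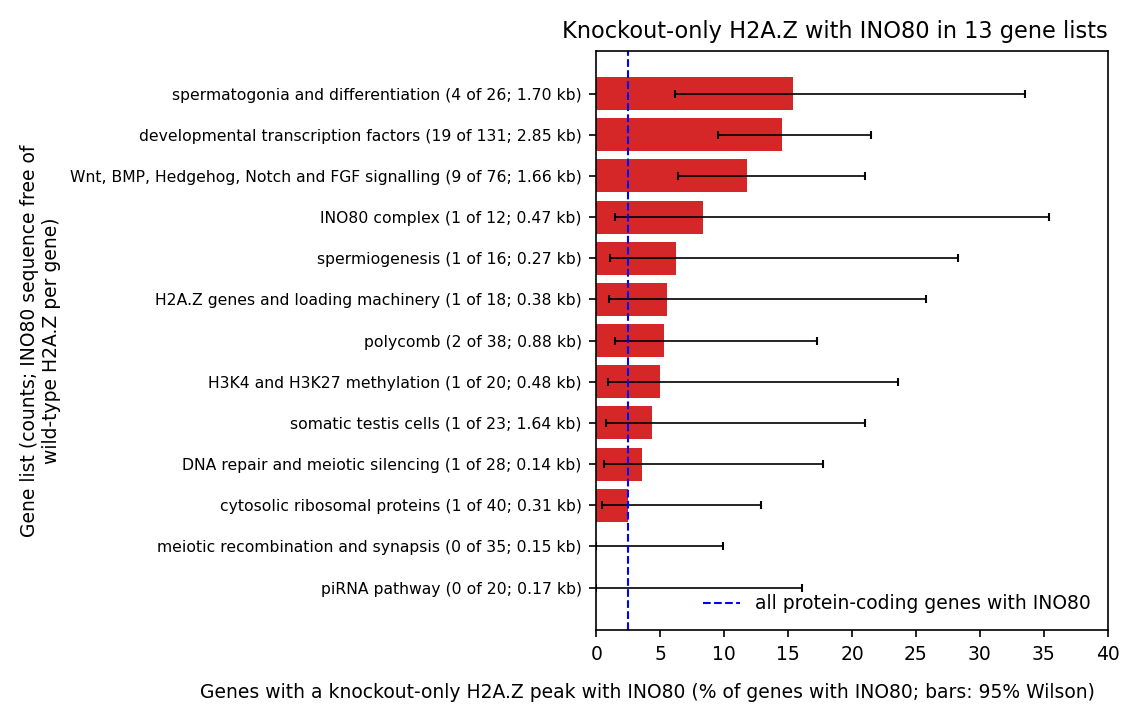
Share (%) of genes with INO80, in the gene or within 1 kb, that also had a member, for 13 gene lists with 95% Wilson intervals; labels give the counts and the mean INO80 sequence free of wild-type H2A.Z per gene. Spermatogonial, developmental and signalling genes stand highest, above the dashed line of all genes (2.47%), and have 1.66 to 2.85 kb of free INO80 sequence a gene.

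At the level of gene ends, 187 of 21887 protein-coding genes (0.854%) had a member. At 131 of these 187 (70.1%) a wild-type H2A.Z peak also stood at an end of the gene, and at 56 none did. Of all 11936 genes with INO80 at an end, 96.2% had wild-type H2A.Z at one, a difference that the rule itself favours. Ednrb, Eftud2, Ccdc103, Avp, Tgfbi and Gpr4 were among the 56. Members farthest from wild-type H2A.Z lay in Frmpd4 on the X (161 bp, 550028 bp away), at an end of Cntn4 (147 bp, 440873 bp), between genes nearest to Erg (279 bp, 192819 bp), in Plb1 (212 bp, 120186 bp) and at Arl6ip1 (177 bp, 113060 bp).

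Some members met the rule by a few bases. Those nearest to wild-type H2A.Z lay in Cracd, where a member touched it with a gap of 0 bp, and at Nol3 (2 bp), Stk40 (3 bp), Id3 (14 bp) and Hoxc9 (19 bp). Just outside the rule, knockout peaks nearest to Nmu, Htr1b and Gsc overlapped wild-type H2A.Z by 2, 2 and 3 bp. For INO80 the smallest overlaps were at Stk40 (9 bp), Pcsk1 (17 bp) and Akp3 (22 bp), and the nearest peaks just outside, closest to Pllp, Prss27 and Cntfr, missed INO80 by 3, 12 and 15 bp. Such cases were few: 16 members lay within 50 bp of wild-type H2A.Z, 7 overlapped INO80 by 50 bp or less, and 300 of 391 (76.7%) lay wholly within INO80.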

How the data were processed

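Chromatin of P18 spermatogenic cells was cut with micrococcal nuclease before precipitation, per the labels' protocols. Micrococcal nuclease releases nucleosomes, so a peak edge can follow a nucleosome edge. The authors deposited 1 peak list per ChIP group whose 3 columns give peak positions (chromosome, first and last base) without any score. Per the submitters' processing notes the build was mm10 and the tools included Bowtie2, SAMtools, deepTools and MACS2. The role of each tool, the threshold, the control and the joining of 2 libraries into 1 list were not given in the sources used here. Input libraries were not analysed here.

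Peaks that shared 1 bp or more were taken as overlapping, and positions are counted from 1. The count of members was equal with bedtools 2.31.1. Gene extents came from the RefSeq table of GRCm38.p6 and starts and promoter sequences from a RefSeq table of the same build, which gives no entry for 9 members. Neither gives exons. Odds ratios, with 95% intervals, came from two-sided tests of Fisher's exact kind with Benjamini-Hochberg adjustment over 6 comparisons at a threshold of 0.05. The tests were tested on simulated data. Like widths were compared over 9 width bins (Mantel-Haenszel). The members, lists and tests were chosen with earlier results of these data known. Of 568 list entries 566 matched a gene, 6 through an older symbol. Named are the 10 widest members, overall and at gene ends, the 10 in the widest INO80 peaks, the 5 nearest to and farthest from wild-type H2A.Z, INO80 peaks with more than 1 member, those at the edges of the rule, and up to 6 a list. Of the 10 widest, 1 is not reported here. The printed promoters and the genes named beside a motif were chosen after their values were seen. Shares carry 95% Wilson intervals. Tests ran in scipy 1.17.1 and statsmodels 0.14.6 under Python 3.11.15, tables in pandas 2.3.3 with numpy 2.4.6, and plots in matplotlib 3.10.9.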

Additional observations from a re-analysis of the deposited data

How the results depend on the processing

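The number of members depended on the H2A.Z lists and on the distance required from wild-type H2A.Z. It was 359 with at least 50% of the peak under INO80, 306 with no wild-type peak within 250 bp, 274 with the widest 50% of INO80 peaks and 383 on autosomes. It fell to 186 with no wild-type peak within 1 kb and to 12 with the widest 50% of knockout peaks, and was 1021 when the narrowest wild-type peaks were dropped until both H2A.Z lists were equally long, which adds members by construction. INO80 peaks with a member held wild-type H2A.Z within 1 kb in 57.3% of cases. The gene-end comparisons with knockout-only peaks without INO80 and with shared knockout peaks kept their direction and passed the test (exact, or Mantel-Haenszel for like widths) in every setting tried. The rule itself favours both directions. With no peak of the other genotype within 1 kb the ratio against shared knockout peaks was 0.174. No comparison with wild-type-only peaks and none on the X passed the threshold in any setting tried (adjusted p from 0.0557, with annotated starts, to 0.767), but the direction turned in 4: 1.04 for gene ends against wild-type-only peaks with 3 kb windows, 0.837 for the X against shared knockout peaks of like width, and, away from gene ends, 2.18 and 1.76 for the X against knockout-only peaks without INO80 and wild-type-only peaks with INO80. No paired analysis was possible because each list stands for both libraries of its group. For the same reason no library could be left out.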
